A study of Homo sapiens with 8 samples.

Results

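The genes described here are 10 transcription factor genes, 7 of the Krüppel-like factor (KLF) family (KLF2, KLF4, KLF6, KLF9, KLF10, KLF11 and KLF13) and the 3 NR4A nuclear receptor genes (NR4A1, NR4A2 and NR4A3). They were chosen by symbol, and each has a row among the 30233 genes of the deposited table. The table comes from RNA-seq of 8 libraries of the human monocytic leukaemia line THP-1, whose cells were made macrophage-like with the phorbol ester PMA (100 ng/ml, 24 h) and then rested for 24 h in PMA-free medium. In 4 libraries the cells received 5 mM 3-HPA (3-hydroxypropionic acid) together with 100 ng/mL LPS, the bacterial outer-membrane lipid that sets off inflammatory gene expression, and in the other 4 they received 100 ng/mL LPS alone; all cells carry the label WT. The treatment protocol has both agents added at once, whereas the series description speaks of pretreatment, and unstimulated cells and cells given 3-HPA alone were not analysed here. The question is which of these factors differ in transcript level when 3-HPA accompanies LPS. One cell line stands for the macrophage here, the sources used here do not give the time under LPS, and nothing in the labels says that the 4 libraries of a group came from separate cultures, so p-values measure a spread that may be technical.

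KLF proteins bind GC-rich and CACCC elements of DNA through zinc fingers at their C-terminal end, and their N-terminal parts decide whether they activate or repress. In monocytes and endothelial cells KLF2 and KLF4 are known for restraining inflammatory gene expression, while KLF9, KLF10, KLF11 and KLF13 belong to the branch that recruits the SIN3A corepressor. NR4A proteins (NUR77, NURR1 and NOR1) are orphan nuclear receptors whose activity is set mainly by how much protein is made, and their genes are classical immediate-early genes, induced through cyclic AMP and the factor CREB and by LPS.

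Because the NR4A genes are known to be induced through the cyclic AMP response element (CRE), promoters of members that hold it, or more than 1 of its half-sites, are shown. RefSeq windows (GRCh38.p14) were found for 8 of the 10 genes, at 10 start sites; KLF10 and NR4A2 are named only. The 250 bases upstream of each start site were searched on both strands. NR4A3 held 4 half-sites (TGACG) within 109 bases of its start, KLF4 held 2, and the second of the KLF11 start sites held a full CRE (TGACGTCA), which is made of 2 overlapping half-sites. Each line runs 5′ to 3′ along the gene's strand, stops where an annotated exon of the gene begins, and has the CRE and its half-sites in capitals: NR4A3 at chr9:99821635-99821854 (plus strand, 220 bases, 3 of its 4 half-sites), KLF4 at chr9:107489770-107490019 (minus strand, 250 bases) and KLF11 at chr2:10043971-10044174 (plus strand, 204 bases). These windows lie upstream of RefSeq starts, which for KLF4 and this KLF11 site are 713 and 1372 bases downstream of the outermost start in GENCODE 29, so both windows lie within the annotated gene; the NR4A3 start is 30 bases downstream of the outermost one.
NR4A3: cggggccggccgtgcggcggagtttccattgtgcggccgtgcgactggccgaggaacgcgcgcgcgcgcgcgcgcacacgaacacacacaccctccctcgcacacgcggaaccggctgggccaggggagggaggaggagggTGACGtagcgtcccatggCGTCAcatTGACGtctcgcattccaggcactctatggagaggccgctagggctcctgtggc
KLF4: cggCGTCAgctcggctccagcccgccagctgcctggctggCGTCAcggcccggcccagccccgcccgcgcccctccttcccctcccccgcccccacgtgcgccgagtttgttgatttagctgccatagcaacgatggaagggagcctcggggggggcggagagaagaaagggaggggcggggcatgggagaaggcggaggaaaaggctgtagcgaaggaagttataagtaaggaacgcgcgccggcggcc
KLF11: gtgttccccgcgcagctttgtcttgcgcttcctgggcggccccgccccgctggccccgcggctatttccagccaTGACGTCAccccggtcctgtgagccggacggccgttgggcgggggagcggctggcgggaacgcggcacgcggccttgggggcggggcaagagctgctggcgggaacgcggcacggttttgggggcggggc
A full CRE stands in 1.65% of the 35097 promoter windows of this length, at least 1 half-site in 21.2%, at least 2 in 4.76% and at least 4 in 0.236%. The NR4A-type response element NBRE (AAAGGTCA, both strands; 1.05% of windows) was not found in any of the 10 windows. KLF13 held 1 half-site, and no half-site was found in the windows of KLF2, KLF6, KLF9 and NR4A1. These matches describe letters only.

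Depth, recovered from the FPKM values (reads scaled by gene length and library total), was 35647756 to 40362671 reads in the 3-HPA libraries and 37509810 to 41859879 in the LPS libraries. Across genes, which do not replicate one another, Pearson's r was 0.992 to 0.993 within groups and 0.981 to 0.982 between them. Of the 8 macrophage markers, 7 were tested by limma, 5 rose (CD14, CSF1R, SPI1 and ITGAM among them), FCGR1A fell and LYZ did not pass. CSF1R averaged 401 ± 11.3 FPKM with 3-HPA and 286 ± 5.93 FPKM with LPS (SD, n = 4 each), and SPI1 averaged 391 ± 6.95 FPKM with 3-HPA and 334 ± 1.23 FPKM with LPS. FCGR1A averaged 20 ± 0.696 FPKM with 3-HPA and 22.9 ± 1.11 FPKM with LPS, and LYZ 12.1 ± 1.06 FPKM with 3-HPA and 12.9 ± 0.592 FPKM with LPS. CD68 was listed at no more than 0.126 FPKM in any library, but 85.8% of its annotated exon bases also lie in an exon of another gene and the treatment of shared reads is not stated, so this value does not show whether CD68 was expressed. Markers of other cell types summed to at most 0.379 FPKM for the endothelial list, 0.142 for the erythroid, 0.0361 for the T cell and 0.00923 for the epithelial list, with 3, 2, 1 and 1 of 4 genes having a row. The B cell list summed to 2.84 to 3.24 FPKM with 3-HPA and 5.9 to 6.72 FPKM with LPS, nearly all of it PAX5, with MS4A1 at most 0.0112 FPKM. The fibroblast list summed to 5.53 to 6.22 FPKM with 3-HPA and 3.15 to 3.4 FPKM with LPS, from COL1A1 and PDGFRA, with DCN at most 0.0262 FPKM. The part of these differences in the results below was not tested.

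KLF and NR4A genes moved in both directions with 3-HPA, and none of the 8 tested changed as much as 2-fold. KLF4, KLF6, KLF11 and NR4A2 fell, KLF9 and KLF13 rose, KLF10 and NR4A3 did not pass the test, and KLF2 and NR4A1 lay below the filter on low values (at least 0.5 FPKM in at least 4 libraries) and were not tested. The 6 of 8 called stand beside 43.7% of the 12499 genes tested in the whole set, by direction 2 higher beside 15.7% and 4 lower beside 28%. The groups did not overlap in those 6 members, as in 42.2% of all genes tested. The median log2 fold change of the 8 was -0.08, beside -0.05 for all genes tested. Throughout, a fold change is the mean of log2(FPKM + 1) with 3-HPA minus that with LPS, a scale that shrinks changes of low genes, and the test is limma, with p adjusted by Benjamini and Hochberg's method across the 12499 genes and a threshold of 0.05. In bulk RNA, fewer cells expressing a gene and less RNA per cell cannot be told apart.

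**Figure D1:**
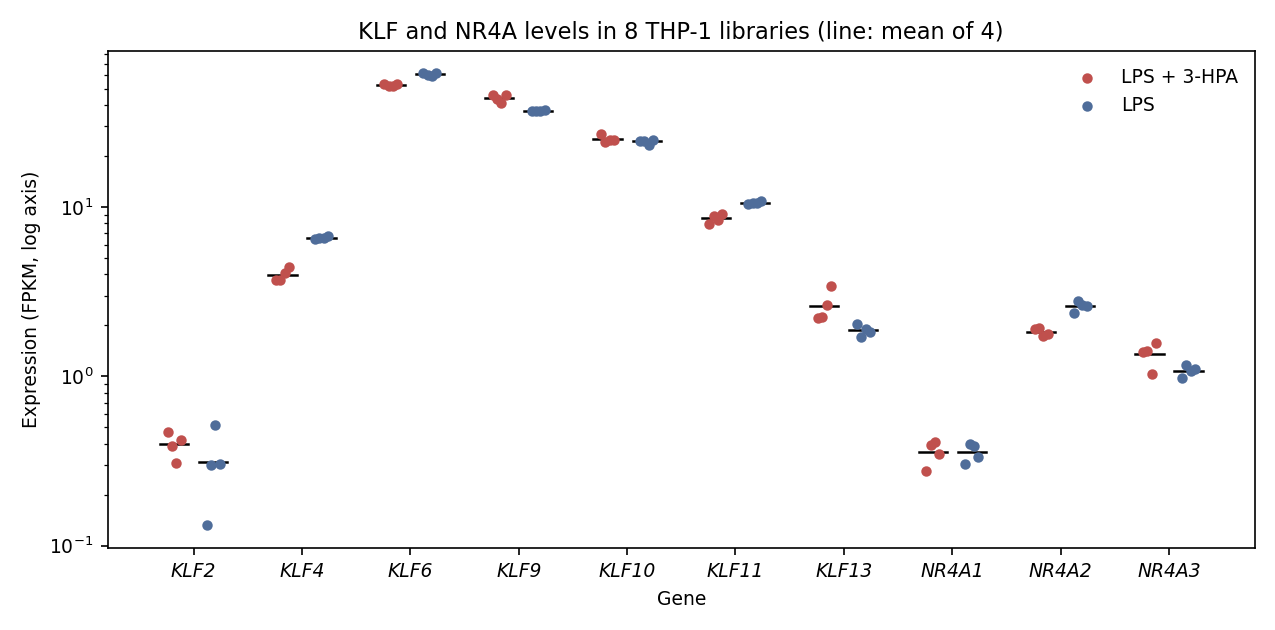
Expression of each gene in FPKM (log axis) in the 4 libraries given LPS with 3-HPA (left of each pair) and the 4 given LPS (right); points are libraries and lines are means. KLF6 and KLF9 lie highest, KLF2 and NR4A1 lie below 0.6 FPKM in every library, and the groups separate in KLF4, KLF6, KLF9, KLF11, KLF13 and NR4A2.

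Among the activator-type KLF genes, KLF4 (ENSG00000136826; GRCh38 chromosome 9, 107484852 to 107490482, minus strand), for a factor that drives monocyte differentiation, showed the largest change of any member tested. It stood at 3.71, 3.69, 4.1 and 4.41 FPKM in 3-HPA libraries 1 to 4, against 6.46, 6.55, 6.56 and 6.76 FPKM in LPS libraries 1 to 4. Every 3-HPA library lay below every LPS library, and the spread was wider with 3-HPA (SD 0.341) than with LPS (SD 0.13). The log2 fold change was -0.61 (SE 0.049, limma adjusted p = 1.11e-05), and the mean FPKM with 3-HPA was 0.604 times that with LPS. These values rest on 511 to 1037 reads per library; 1 annotated pseudogene, with which reads could be shared, was not analysed here. Among all genes tested, 4.6% had a larger change in either direction.

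KLF6 (ENSG00000067082; chromosome 10, 3775996 to 3785281, minus strand), whose product promotes inflammatory gene expression in mouse macrophages, was the most abundant member and fell by a small amount. It was 53.3, 52.2, 52.0 and 53.4 FPKM in the 3-HPA libraries and 61.5, 60.3, 59.5 and 61.6 FPKM in the LPS libraries. Both groups were narrow and clear of each other, at -0.20 on the log2 scale (limma SE 0.018, adjusted p = 2.08e-05).

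KLF2 (ENSG00000127528; chromosome 19, 16324817 to 16327874, plus strand), the endothelial and monocyte quiescence factor, was near the floor of the assay. It was 0.472, 0.387, 0.308 and 0.418 FPKM in the 3-HPA libraries and 0.132, 0.301, 0.516 and 0.305 FPKM in the LPS libraries, on 14 to 56 reads. The groups overlapped, and an exact two-sided permutation test over the libraries gave p = 0.4 (the smallest possible with 4 against 4 is 0.0286). By limma voom on the recovered reads without a filter, where 18% of genes passed, its log2 fold change was 0.46 with a 95% interval of -0.28 to 1.21 (adjusted p = 0.466), too wide to give a direction at this depth. Its 4 annotated processed pseudogenes, with which reads could be shared, were not analysed here.

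The SIN3A-binding members did not move as a block: KLF9 and KLF13 rose, KLF11 fell and KLF10 did not pass. KLF9 (ENSG00000119138; chromosome 9, 70384597 to 70414624, minus strand), a known glucocorticoid-induced gene, stood at 46.1, 43.5, 41.2 and 45.8 FPKM in the 3-HPA libraries and 37.0, 37.0, 36.8 and 37.5 FPKM in the LPS libraries. The LPS libraries were almost level (SD 0.315) and the 3-HPA libraries all higher but more spread (SD 2.29), and the difference was 0.24 on the log2 scale (limma SE 0.034, adjusted p = 0.000392). Its ratio to KLF6 within a library, which does not depend on how libraries are scaled, was 0.791 to 0.865 with 3-HPA and 0.602 to 0.618 with LPS. KLF9 and KLF6 each separated the groups on their own, in opposite directions.

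KLF13 (ENSG00000169926; chromosome 15, 31326855 to 31435665, plus strand), known for driving late CCL5 expression in T lymphocytes, was 2.21, 2.23, 2.65 and 3.4 FPKM in the 3-HPA libraries and 2.04, 1.71, 1.91 and 1.82 FPKM in the LPS libraries. The groups did not overlap, but 3-HPA library 4 stood well above the others, and the 2 lowest 3-HPA libraries were close to the highest LPS library. The log2 fold change was 0.32 (SE 0.099, limma adjusted p = 0.0267). The call ended without 3-HPA library 3 (adjusted p = 0.0585) or LPS library 2, 3 or 4 (0.0669, 0.0504 and 0.0592) and without the filter on low values (0.0759), while without 3-HPA library 4 the log2 fold change was 0.23 and passed (0.0274). A processed pseudogene on the same strand, UBE2CP4, shares 535 bases with the KLF13 gene, and its part in these values was not tested.

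KLF11 (ENSG00000172059; chromosome 2, 10042849 to 10054836, plus strand), one of the TGF-β-inducible early genes, was 7.94, 8.91, 8.42 and 9.04 FPKM in the 3-HPA libraries and 10.4, 10.5, 10.6 and 10.8 FPKM in the LPS libraries. All 3-HPA libraries lay below all LPS libraries, and the difference was -0.27 on the log2 scale (limma SE 0.039, adjusted p = 0.000427). KLF10 (ENSG00000155090; chromosome 8, 102648779 to 102655902, minus strand), the other TGF-β-inducible early gene, was 27.0, 24.2, 24.8 and 24.8 FPKM in the 3-HPA libraries and 24.5, 24.7, 23.4 and 24.8 FPKM in the LPS libraries. Here the groups overlapped, and the log2 fold change was 0.05 with a 95% interval of -0.03 to 0.13 (limma adjusted p = 0.324). Reads of KLF11 over 416 bases shared with an antisense gene on the opposite strand cannot be told apart, since no strand setting is stated.

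Of the NR4A genes, NR4A2 fell, NR4A3 did not pass and NR4A1 was too low to test. NR4A2 (NURR1; ENSG00000153234; chromosome 2, 156324432 to 156342348, minus strand) was 1.9, 1.94, 1.74 and 1.77 FPKM in the 3-HPA libraries and 2.38, 2.78, 2.65 and 2.62 FPKM in the LPS libraries. Each 3-HPA library was below each LPS library, at -0.35 on the log2 scale (limma SE 0.049, adjusted p = 0.00043) and a mean FPKM 0.705 times that with LPS.

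NR4A3 (NOR1; ENSG00000119508; chromosome 9, 99821855 to 99866891, plus strand) was 1.4, 1.41, 1.03 and 1.58 FPKM in the 3-HPA libraries and 0.984, 1.16, 1.07 and 1.1 FPKM in the LPS libraries. Of the 3-HPA libraries, 1, 2 and 4 stood above all LPS libraries, whereas library 3 lay within their range. The log2 fold change was 0.18 with a 95% interval of 0.00 to 0.35 (limma adjusted p = 0.0931), and it passed without 3-HPA library 3 (0.24, adjusted p = 0.00959) and by limma voom on recovered reads (0.32, adjusted p = 0.0464). By limma voom without the filter on low values it did not pass (0.32, adjusted p = 0.121). The ratio of NR4A2 to NR4A3 within a library was 1.36, 1.37, 1.69 and 1.12 with 3-HPA and 2.42, 2.41, 2.48 and 2.37 with LPS, ranges that did not overlap. NR4A2 alone already separated the groups, and the share of gene pairs whose ratio does so was not computed.

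NR4A1 (NUR77; ENSG00000123358; chromosome 12, 52022832 to 52059507, plus strand), needed for patrolling monocytes in mice, was 0.277, 0.394, 0.408 and 0.349 FPKM in the 3-HPA libraries and 0.303, 0.399, 0.388 and 0.334 FPKM in the LPS libraries, on 76 to 120 reads. The ranges nearly coincided; an exact two-sided permutation test gave p = 1, and limma voom without a filter gave a 95% interval of -0.40 to 0.39 on the log2 scale (adjusted p = 0.988). An RNA gene on the opposite strand shares 1045 bases with it. The summed FPKM of the 3 NR4A genes was 3.18 to 3.75 with 3-HPA and 3.67 to 4.34 with LPS, ranges that overlapped.

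**Figure D2:**
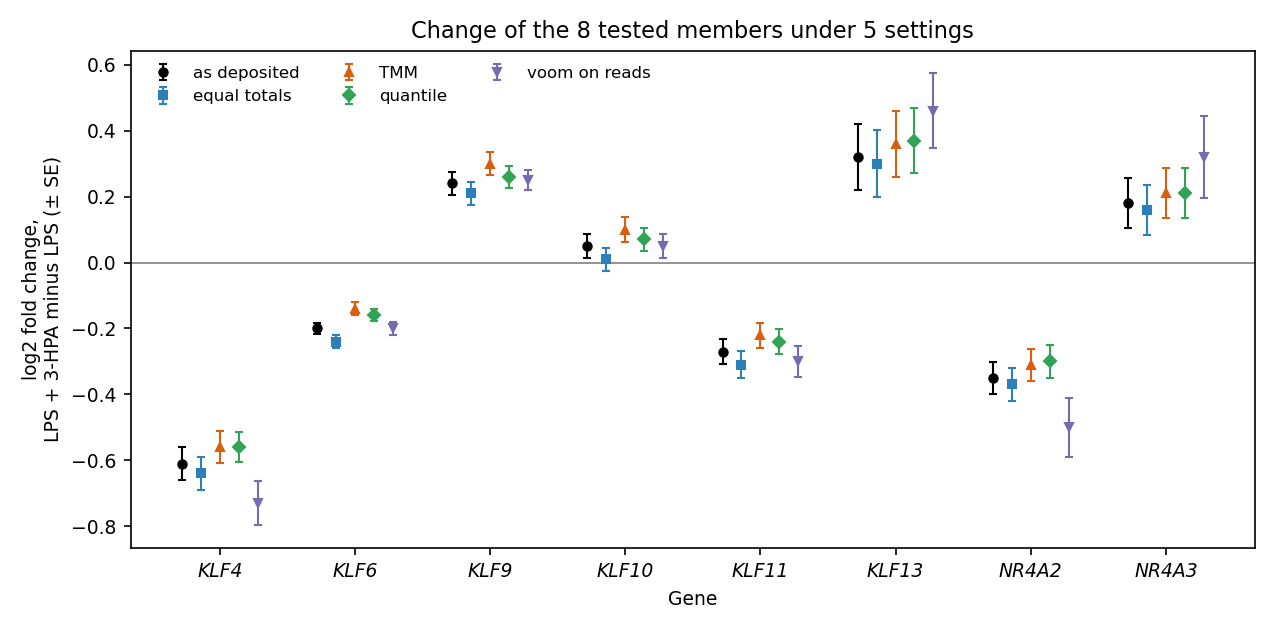
Log2 fold change (LPS with 3-HPA minus LPS, ± SE) of the 8 tested members with the deposited values, with equal FPKM totals, with TMM scaling, after quantile normalisation and by limma voom on recovered reads. KLF4, KLF6, KLF11 and NR4A2 lie below 0 and KLF9, KLF13 and NR4A3 above 0 in all 5 settings, and KLF10 runs from 0.01 to 0.10.

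Of all genes called, 36% were higher with 3-HPA as deposited, 28.4% with equal FPKM totals, 49.8% with TMM (trimmed mean of M values) and 46.4% after quantile normalisation. Under each of these 4 scalings the members gave 2 higher and 4 lower.

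Since FPKM is per length, levels were ordered between genes. Bases or reads shared with other genes can alter a level, and their part in the order was not tested. With 3-HPA the order of mean FPKM was KLF6 (52.7), KLF9 (44.1), KLF10 (25.2), KLF11 (8.58), KLF4 (3.98), KLF13 (2.62), NR4A2 (1.84), NR4A3 (1.35), KLF2 (0.396) and NR4A1 (0.357). With LPS it ran KLF6 (60.7), KLF9 (37.1), KLF10 (24.4), KLF11 (10.6), KLF4 (6.58), NR4A2 (2.61), KLF13 (1.87), NR4A3 (1.08), NR4A1 (0.356) and KLF2 (0.314). KLF13 and NR4A2 changed places, without overlap in either group, and only the neighbours KLF2 and NR4A1 overlapped in both. Among the 3-HPA libraries, library 4 held the highest value for 5 members (KLF4, KLF6, KLF11, KLF13 and NR4A3) and library 3 the lowest for 5 (KLF2, KLF6, KLF9, NR4A2 and NR4A3).

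The rest of the KLF family and its SP relatives, which share the zinc-finger region, was split in the same table. Counts here and for each list below stand beside 15.7% of all genes tested called higher and 28% lower. Of the other KLF genes, 9 of 11 had a row and 6 were tested: KLF3, KLF15 and KLF7 rose, KLF5 and KLF12 fell and KLF16 did not pass. KLF5, for a growth-promoting activator, averaged 44.7 ± 2.58 FPKM with 3-HPA and 60.8 ± 2.18 FPKM with LPS (log2 fold change -0.43, limma adjusted p = 3.83e-05). KLF3, for a repressor that recruits CtBP, averaged 12.1 ± 0.514 FPKM with 3-HPA and 9.1 ± 0.351 FPKM with LPS (0.38, adjusted p = 4.07e-05). KLF12, another CtBP-binding repressor gene, fell by 0.19 on the log2 scale, KLF15 rose by 0.25 and KLF7 by 0.10, and KLF16 was at -0.06 (limma adjusted p = 0.516). The KLF7 call ended with equal FPKM totals (limma adjusted p = 0.0905) and without 3-HPA library 2 or 3 or LPS library 1, 3 or 4 (0.0598 to 0.0641), and the KLF15 call without the filter on low values (0.0562). By limma voom on recovered reads, which has no added 1 FPKM, the log2 fold change was -0.41 for KLF12 and 0.47 for KLF15.

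The 16 KLF genes with a row summed to 216 to 225 FPKM with 3-HPA and 235 to 243 FPKM with LPS. KLF9 made up 20% ± 0.962 of that sum with 3-HPA and 15.6% ± 0.138 with LPS (SD, n = 4 libraries each). KLF5 made up 20.3% ± 1.17 with 3-HPA and 25.6% ± 0.523 with LPS. KLF6 made up 24% ± 0.284 with 3-HPA and 25.6% ± 0.377 with LPS. KLF9 and KLF5 thus took nearly equal shares with 3-HPA, whereas KLF5 and KLF6 did with LPS.

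Of the SP genes, 8 of 9 had a row and 5 were tested. SP9, known from interneuron development in mice, averaged 21.7 ± 1.54 FPKM with 3-HPA and 11.2 ± 0.295 FPKM with LPS (log2 fold change 0.89, limma adjusted p = 6.01e-07), and SP3, a widely expressed GC-box factor, rose by 0.34. SP2 fell by 0.19 and SP4 by 0.22, and SP1, the founding GC-box activator, was at 0.01 with the groups overlapping (limma adjusted p = 0.832). By limma voom on recovered reads SP4 was at -0.34.

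**Figure D3:**
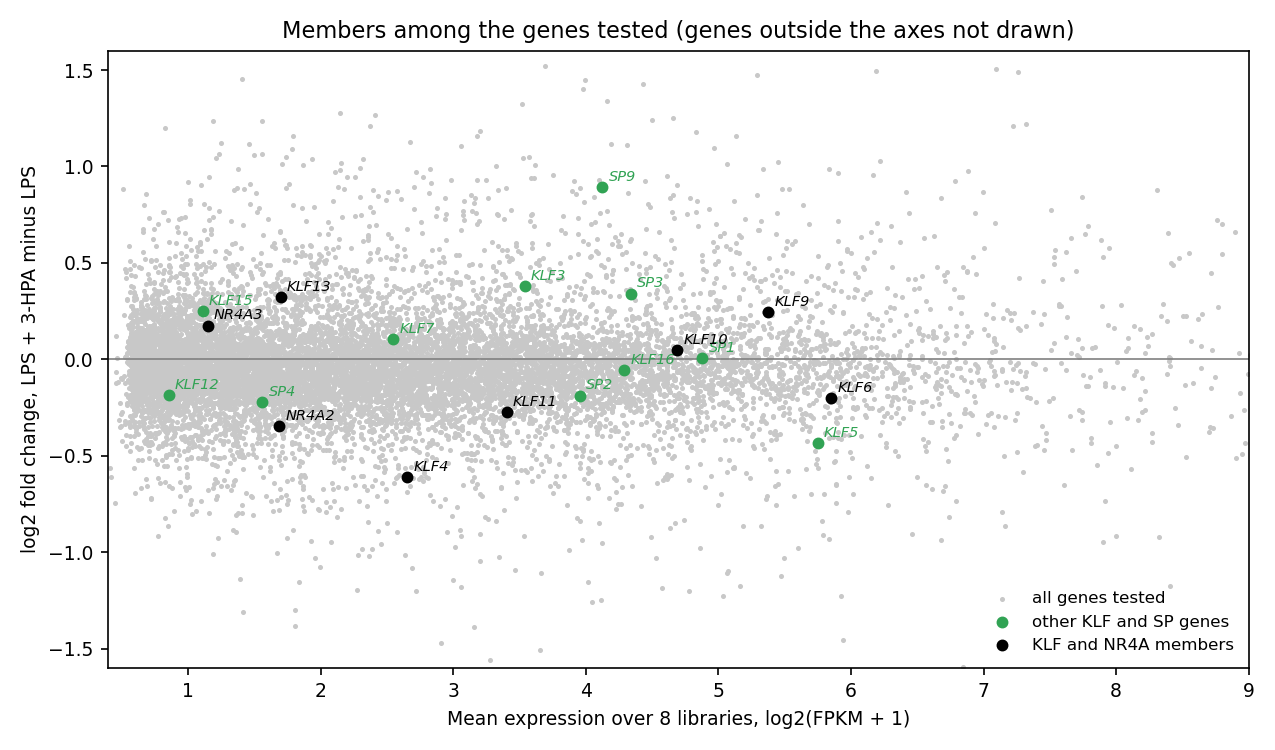
Log2 fold change (LPS with 3-HPA minus LPS) against mean expression over the 8 libraries on the log2(FPKM + 1) scale, for all genes tested (grey), the tested KLF and NR4A members (black) and the other tested KLF and SP genes (green). SP9 at 0.89 lies highest among the labelled genes and KLF4 at -0.61 lowest.

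Of 10 KLF corepressor and coactivator genes, 4 fell and the other 6 did not pass (1 higher and 3 lower under TMM). Those that fell were the acetyltransferase genes CREBBP (-0.17), KAT2B (-0.19) and EP300 (-0.10) and the deacetylase gene HDAC2 (-0.15); the EP300 call ended under TMM (limma adjusted p = 0.178). Of the NR4A partner genes tested, RXRA, whose product pairs with NR4A1 and NR4A2, rose by 0.22, while RCOR1 (0.05, limma adjusted p = 0.18) and KDM1A (-0.02, adjusted p = 0.769) did not pass; RCOR1 passed under TMM (0.016) and after quantile normalisation (0.0423). The median log2 fold change was -0.06 for the first list and 0.05 for the second, beside -0.05 for all genes tested.

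Upstream of KLF2 and KLF4 runs the kinase ERK5 (MAPK7) and the MEF2 factors, and of 6 tested genes of that pathway 2 rose and 3 fell (median -0.05). MEF2C averaged 9.83 ± 0.275 FPKM with 3-HPA and 7.51 ± 0.249 FPKM with LPS (log2 fold change 0.35, limma adjusted p = 2.39e-05), and the kinase gene MAP3K3 rose by 0.34. MAP2K5, for the kinase that activates ERK5, fell by 0.29 and MAP3K2 by 0.16. MAPK7 averaged 4.09 ± 0.113 FPKM with 3-HPA and 4.11 ± 0.442 FPKM with LPS.

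Upstream of the NR4A genes, 1 of 11 tested CREB factor and coactivator genes rose and 3 fell (median -0.08). Over all genes tested, 15.7% were called higher and 28% lower. CREM, which also encodes the inducible cyclic AMP repressor ICER, averaged 6.46 ± 0.168 FPKM with 3-HPA and 8.17 ± 0.26 FPKM with LPS (log2 fold change -0.30, limma adjusted p = 6.8e-05). CRTC1 (-0.17) and ATF1 (-0.16) fell and the regulatory subunit gene PRKAR1A rose by 0.13; the ATF1 call ended without LPS library 2 or 3 (limma adjusted p = 0.054 and 0.0607), under TMM (0.0945), after quantile normalisation (0.0656) and without the filter on low values (0.0574). Under TMM the counts of this list were 3 higher and 2 lower.

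Genes known to be induced by cyclic AMP and CREB, the class to which the NR4A genes belong, were split, with 7 of 15 tested higher and 5 lower (median 0.07). For this list and the next, the shares over all genes tested were 15.7% higher and 28% lower. CITED2 (418 ± 10.9 FPKM with 3-HPA and 290.3 ± 9 FPKM with LPS), the phosphatase gene DUSP1 (0.48), FOS (0.67) and FOSB (0.92) had the smallest p-values, and all 4 rose. FOSB, the lowest of them, was at 2.08 by limma voom on recovered reads. NR4A2 fell, as did the 5 lower genes of this list. Glucocorticoid receptor targets, the class to which KLF9 belongs, were lower in 6 of 9 tested and higher in 1 (median -0.28): FKBP5, a co-chaperone gene, averaged 3.5 ± 0.159 FPKM with 3-HPA and 5.64 ± 0.265 FPKM with LPS, and SGK1 (-0.31) and TXNIP (-0.29) fell too, while DUSP1, shared with the first list, was the 1 that rose.

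Targets of TGF-β and SMAD signalling, with which KLF10 and KLF11 are known to respond, gave 4 higher and 3 lower of 11 tested (median -0.02). Among all genes tested the shares were 15.7% higher and 28% lower. The inhibitor gene SMAD7 (0.37) and TGFB1 itself (0.16) rose and the repressor gene TGIF1 fell by 0.24.

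Genes known as targets of KLF2 or KLF4 in endothelium, leukocytes or tumour cells rose in 7 of 8 tested and fell in 1 (median 0.49), a count that was the same under each of the 4 scalings. In the reported fit, 15.7% of all genes tested were called higher and 28% lower. Without the filter on low values, 7 were called higher and 2 lower, both by the reported fit and by limma voom on recovered reads. THBD, for the anticoagulant receptor thrombomodulin, averaged 13.9 ± 0.444 FPKM with 3-HPA and 3.55 ± 0.287 FPKM with LPS (log2 fold change 1.72, limma adjusted p = 1.9e-08). CD14, for the LPS co-receptor, rose by 0.77, the integrin gene ITGB7 by 0.61 and the cell cycle inhibitor gene CDKN1A by 0.46. The complement regulator gene CD55 was the 1 that fell among the 8 tested with the filter (-0.38). CD14 is also among the macrophage markers. NOS3, the defining endothelial target, was at most 0.0494 FPKM in any library, and KLF4 itself fell in the same libraries.

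**Figure D4:**
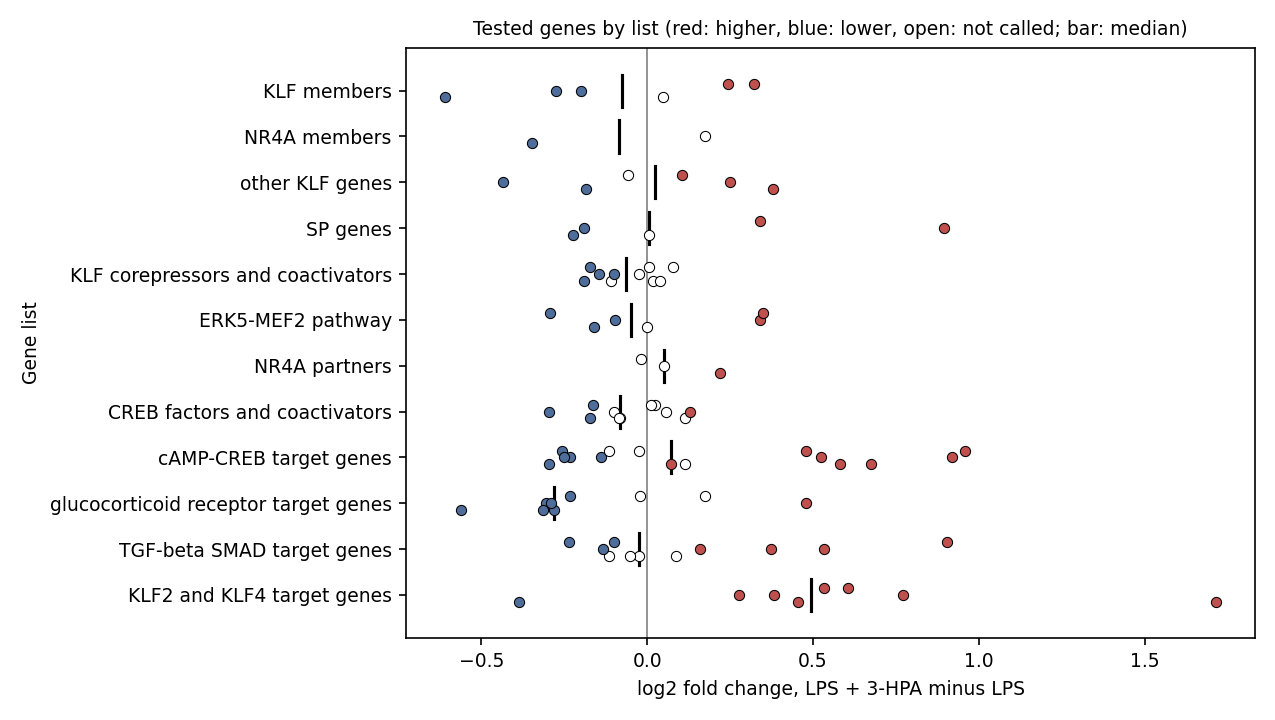
Log2 fold change (LPS with 3-HPA minus LPS) of every tested gene by list; red points were called higher, blue points lower and open points not called at an adjusted p of 0.05, and bars are medians. The KLF and NR4A members lie on both sides of 0, the glucocorticoid targets mostly below it (median -0.28) and the KLF2 and KLF4 targets mostly above it (median 0.49).

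The member with the smallest p was KLF4, and the 5 genes whose profile over the 8 libraries lay nearest to its own, by root mean square distance of log2(FPKM + 1) after subtraction of each gene's mean, were CASP5 (0.053), TRIM38 (0.053), FBXO32 (0.053), RBCK1 (0.054) and the pseudogene ZNF731P (0.055). Their log2 fold changes were -0.55, -0.64, -0.57, -0.54 and -0.57 in the same order. The points share their libraries and the contrast, so the likeness is a description.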

How the data were processed

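RNA-seq libraries of THP-1 cells, 4 per group, were analysed from a table of FPKM values deposited by the authors, whose processing notes list featureCounts, HISAT2 2.1.0, fastp 0.22.0 and the GRCh38 build. The sources used here do not give the annotation release, strand setting or read filters. Symbols came from a table of gene names that matched 30221 of 30233 identifiers, and positions from GENCODE 29 (GRCh38). Promoter sequences are RefSeq's (GRCh38.p14).

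Whole reads were recovered from the FPKM values by finding library totals and gene lengths that made them whole (within 0.01 reads), which held for 99.99% of genes. The smallest such length was taken, or the GENCODE 29 length where it was a multiple of that (13210 genes). Elsewhere a true length could be a multiple of the one found, and the reads too few by that factor. In a simulated table the search recovered all 8 totals and all reads of 1890 of 1954 genes. At 35647756 to 41859879 reads per library, intervals cover counting and library spread only.

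The comparison used limma 3.58.1 in R 4.3.3, with a mean-variance trend on log2(FPKM + 1) in genes with at least 0.5 FPKM in at least 4 libraries, two-sided, Benjamini-Hochberg adjusted over all 12499 genes. In simulated data with a fixed spread, the fit called 33 of 50 genes changed 1.25-fold, in the planted direction. At 1.5-, 2- and 3-fold it called 48, 47 and 49 of 50, and it called 7 of 12299 unchanged genes. That spread was a setting and was not estimated from these libraries. Members and gene lists were chosen with earlier results of these data known. Named genes are the 10 members, all other tested KLF and SP genes, and up to 4 genes with the smallest p in each list; marker genes, NOS3, MAPK7 and CD55 were named after their values were seen, and some genes of the lists are not reported here by name. Alternatives were a pseudocount of 0.1 or 0.5, leaving out the filter or raising it to 1 FPKM, equal totals, TMM (written from its definition), quantile normalisation, limma without trend, the replicate number as a block, limma voom on recovered reads and leaving out each library; voom without a filter was added after seeing the data. Python 3.11.15, numpy 2.4.6, pandas 2.3.3, scipy 1.17.1 and matplotlib 3.10.9 were also used.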

Additional observations from a re-analysis of the deposited data

Results flagged for a closer look

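In 102 groups of 4 libraries (51 named genes, 2 groups each), 5 had 1 library far from the other 3; chance gives about 1 in 20. KLF15 was 1.59 FPKM in 3-HPA library 4, beside 1.24 to 1.3 in the others of that group. KAT2B was 4.1 FPKM in 3-HPA library 1, beside 3.74 to 3.78. KLF7 was 4.85 FPKM in LPS library 2, beside 4.54 to 4.58. MAP3K3 was 7.39 FPKM in LPS library 3, beside 7.12 to 7.14. CREM was 7.78 FPKM in LPS library 3, beside 8.27 to 8.32. None of the 10 KLF and NR4A members had such a library.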

How the results depend on the processing

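KLF4, KLF6, KLF9, KLF11 and NR4A2 kept their direction and stayed past the threshold in all 19 alternatives. KLF13 kept its direction, but its call ended when no filter was applied (0.32, limma adjusted p = 0.0759; members called higher: 1) and in some fits that left out a library, over which its log2 fold change ran from 0.23 to 0.38 and the members called higher from 1 to 2. NR4A3 passed by limma voom on recovered reads (0.32, adjusted p = 0.0464) but not by limma voom without a filter (adjusted p = 0.121). Its log2 fold change ran from 0.13 to 0.24 when a library was left out, and the cause was not tested. Over all genes the count called ran from 4825 to 5931, within 1.5 times the 5462 of the reported fit. Of uncalled genes, SP1 changed sign with equal FPKM totals (-0.03) and ran from -0.01 to 0.02 when a library was left out, and KDM1A changed sign under TMM (0.02) and after quantile normalisation (0.02). Same-numbered libraries did not deviate together (correlations -0.023 to 0.089; 2 of 8 libraries correlated best with their own number), so the numbers were not taken to pair them; with the replicate number as a block 5074 genes and 6 members were called, and the KLF7 and ATF1 calls ended (limma adjusted p = 0.0523 and 0.0565). By voom without a filter the KLF7, KLF15 and ATF1 calls ended (limma adjusted p = 0.0605, 0.0601 and 0.0786). Depth limits KLF2 (14 to 56 reads per library) and NR4A1 (76 to 120 reads).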
